A study of Mus musculus with 24 samples.

Results

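Small RNA of whole mouse liver after acetaminophen was compared with that of untreated control liver. The members described are the microRNA hairpins with at least 100 counts in either of the 2 liver columns, which held for 220 of the 1186 hairpins in the deposited table. Of these, 126 reached the minimum in both columns, 92 in control liver only, and 2 (mir-615 and mir-3066) in acetaminophen liver only. The lowest control count taken in was that of mir-127 (100.0) and the nearest one left out was that of mir-141 (99.78). The treated mice had received 500 mg/kg acetaminophen and the control mice were untreated. A further liver group had received the same dose of acetaminophen with 100 µg/kg granulocyte colony-stimulating factor (G-CSF), and its values are given for orientation. Mouse hepatocytes in culture, untreated or with 20 mM acetaminophen, are set beside the liver values. The sources used here do not give the strain, the age, how many mice were used or the time after dosing. Each condition was sequenced on an Ion Torrent PGM and an Ion Torrent Proton instrument, and the authors combined both libraries into 1 column, so that no replicate, no SD and no test across samples exists for any value below.

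A microRNA is cut from a hairpin precursor, usually as 1 leading mature strand, and represses messenger RNAs that pair with its seed, the bases near its 5′ end. Hepatocytes are dominated by miR-122, while red cells, leukocytes, endothelium and stellate cells carry microRNAs of their own, so whole liver reports a mixture of cells. Acetaminophen in overdose is turned by hepatocyte cytochrome P450 enzymes into a reactive quinone imine that depletes glutathione and kills hepatocytes around the central veins, and the injury draws in leukocytes.

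Of the 220 hairpins, 182 were matched to a RefSeq hairpin of GRCm38, and the sequences printed here are RefSeq's, 5′ to 3′, with the seed (bases 2 to 8) in capitals. The first set belongs to the erythroid cluster on chromosome 11, where mir-144 (chr11:78073005-78073070, plus strand) lies just before mir-451a (chr11:78073170-78073241, plus strand), both outside annotated genes on their strand in GENCODE M21. The entry mir-451b is annotated on the minus strand of the same coordinates. In the hairpins, capitals mark the mature miR-451a and, in mir-451b, the stretch antisense to it.
miR-451a: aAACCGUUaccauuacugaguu
miR-144-3p: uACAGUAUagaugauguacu
miR-144-5p: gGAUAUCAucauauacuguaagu
mir-451a hairpin: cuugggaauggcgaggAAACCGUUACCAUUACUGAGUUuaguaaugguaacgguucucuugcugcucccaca
mir-451b hairpin: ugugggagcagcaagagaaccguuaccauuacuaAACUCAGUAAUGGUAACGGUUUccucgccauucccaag

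The second set shows microRNAs that share a seed and yet had different values in the 2 columns. The let-7 family and miR-98 share the seed GAGGUAG, and the 3 forms of miR-29 share AGCACCA.
let-7a-5p: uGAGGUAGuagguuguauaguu
let-7b-5p: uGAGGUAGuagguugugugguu
let-7d-5p: aGAGGUAGuagguugcauaguu
let-7e-5p: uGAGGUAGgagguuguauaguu
let-7f-5p: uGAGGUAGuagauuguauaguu
let-7g-5p: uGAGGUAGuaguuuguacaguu
let-7i-5p: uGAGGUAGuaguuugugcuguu
miR-98-5p: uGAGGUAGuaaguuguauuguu
miR-29a-3p: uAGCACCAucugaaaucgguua
miR-29b-3p: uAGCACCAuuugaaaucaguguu
miR-29c-3p: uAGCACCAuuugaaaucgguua

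The last set holds leading strands of hairpins with a higher share (miR-340-5p, miR-335-5p, miR-142a-3p, miR-223-3p, miR-21a-5p, miR-2137) and of hairpins with a lower share (miR-342-3p, miR-191-5p, miR-31-5p, miR-103-3p, miR-107-3p, miR-744-5p, miR-324-5p). The base composition of these strands is taken up further on.
miR-340-5p: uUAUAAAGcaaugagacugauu
miR-335-5p: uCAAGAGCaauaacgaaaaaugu
miR-142a-3p: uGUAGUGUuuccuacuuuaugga
miR-223-3p: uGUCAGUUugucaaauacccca
miR-21a-5p: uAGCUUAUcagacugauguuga
miR-2137: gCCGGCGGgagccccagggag
miR-342-3p: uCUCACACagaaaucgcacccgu
miR-191-5p: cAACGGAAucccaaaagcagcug
miR-31-5p: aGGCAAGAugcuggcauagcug
miR-103-3p: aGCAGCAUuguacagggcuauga
miR-107-3p: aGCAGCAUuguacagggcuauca
miR-744-5p: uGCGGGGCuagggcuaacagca
miR-324-5p: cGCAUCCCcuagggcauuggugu

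Among the 3 liver columns, the acetaminophen column stood apart in depth and in the ratio of mature to hairpin counts. Control liver held 1307523 hairpin counts, acetaminophen liver 111316, which is 11.75 times fewer, and the column with G-CSF 1095868. Mature counts amounted to 3.77% of hairpin counts in control liver, 17.7% in acetaminophen liver and 3.99% with G-CSF. A hairpin was seen at least once for 899 entries in control and for 551 in acetaminophen liver, and a count of 0 allows a share of up to 0.000229% and 0.00269% respectively. All comparisons therefore use shares of the column total. A hairpin was called when its share differed by 2-fold or more and the 95% interval of the ratio, exact and conditional on the sum of both counts, left out equality. Intervals and limits cover counting error only. For the liver hairpins, scaling by edgeR's trimmed mean of M values (TMM) lowers every log2 ratio by 0.22. DESeq2 size factors lower it by 0.17, and totals without mir-122 raise it by 0.10. For mature counts TMM moves the ratios up, from a median log2 ratio of -0.41 to -0.18.

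Of the 220 hairpins, 45 had a higher share in acetaminophen liver (20.5%), 71 a lower share (32.3%) and 104 were not called, so that 52.7% were called in either direction. Among all 432 hairpins with at least 10 counts in either column, 20.1% were called higher and 17.1% lower, 37.3% in either direction. The share of hairpins called higher was thus near the background. For lower calls the background is a poor measure, since a hairpin with few control counts can hardly be called lower in the much shallower acetaminophen column. All 432 hairpins held 74 lower calls, of which 71 were among the 220. TMM changed the counts to 33 higher and 83 lower, so that higher calls made up 28.4% of all calls in place of 38.8%. The minimum itself bears on this balance, since fewer hairpins reach it in the shallow acetaminophen column. Of the 126 hairpins that passed in both columns, 31 were called higher and 27 lower, against 12 and 44 of the 92 that passed in control only. Higher-called hairpins held 6.62% of the control total and 29.1% of the acetaminophen total, and lower-called ones 33.7% and 10.4%. Next to the limit, mir-7b (2.01-fold) was called higher and mir-7a-2, just under 2-fold, was not, while mir-140 (ratio 0.498) was called lower and mir-6402 (0.511) was not.

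**Figure D1:**
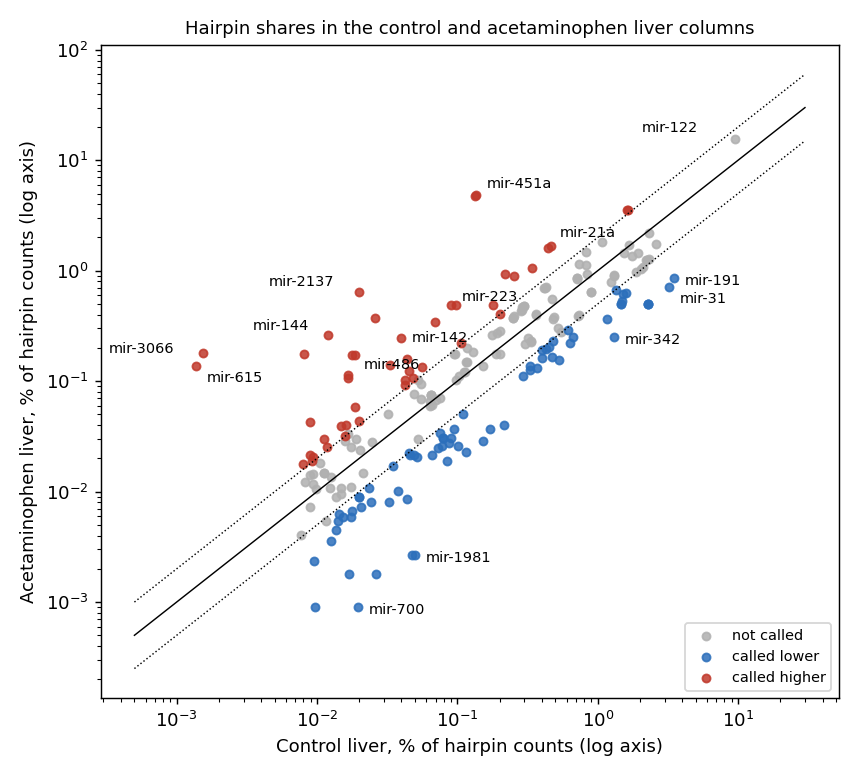
Share of each of the hairpins in the control liver column (x axis, log scale, %) against its share in the acetaminophen liver column (y axis, log scale, %), 1 point per hairpin; the solid line is equality, the dotted lines 2-fold, and mir-5135 (0 counts after acetaminophen) is not drawn. mir-451a lies far above the line, at 0.136% of the control and 4.82% of the acetaminophen total, and mir-191, mir-31 and mir-342 lie under the lower dotted line.

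mir-122, the leading hepatocyte microRNA, is the defining liver marker and was the most abundant hairpin in both columns. It had 125059 counts (9.56% of the total) in control and 17327 (15.6%) in acetaminophen liver. Its share was 1.63-fold higher (95% interval 1.60 to 1.65), under the 2-fold limit. With G-CSF it held 5.69%. The leading strand miR-122-5p made up 23.6% of mature counts in control and 40.1% in acetaminophen liver, a ratio of 1.70. In whole tissue a change in the number of cells of a type and a change of RNA per cell cannot be told apart, here and in the results that follow.

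The 7 hepatocyte-enriched hairpins together held 16.5% of the control and 20.0% of the acetaminophen total, and their ratios differed in direction. Both copies of mir-194, which share a transcript origin with mir-192 and mir-215 in hepatocytes and gut epithelium, were called lower. mir-194-1 had 1.52% (19843 counts) in control and 0.614% (684 counts) after acetaminophen, 2.47-fold lower (2.29 to 2.67), and mir-194-2 was 2.54-fold lower. mir-192 had 1.93% in control and 1.44% after acetaminophen, and mir-215 had 1.77% and 1.35%, neither reaching 2-fold. mir-802, a hepatocyte microRNA linked to glucose handling, was called higher, at 0.0436% (570 counts) and 0.157% (175 counts), a 3.61-fold difference (3.03 to 4.28). mir-148a was 2.08-fold higher (1.81 to 2.38), with 1391 and 246 counts. The median log2 ratio of the list was -0.38, beside -0.10 over all 220 hairpins.

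The erythroid hairpins had the highest median ratio of the 27 lists. All 3 were called higher, and their summed share was 0.166% in control and 5.26% in acetaminophen liver, with a median log2 ratio of 4.44. mir-451a, the red cell microRNA that is cut by Argonaute rather than Dicer, had 1773 counts (0.136%) in control and 5369 counts (4.82%) after acetaminophen. Its share was 35.6-fold higher (33.7 to 37.55), and it ranked 96 in control and 2 after acetaminophen. In raw counts it was also higher, although the acetaminophen column was so much shallower. mir-144, its cluster partner, had 158 counts (0.0121%) and 292 counts (0.262%), a 21.7-fold difference (17.8 to 26.5). mir-486, abundant in red cells and muscle, had 234 counts (0.0179%) and 192 (0.173%), a 9.66-fold difference (7.92 to 11.7).

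Several values stand beside this result. The striated muscle list, which shares mir-486-type expression, had no member among the 220 and a summed share of 0.00464% in control and 0.0180% in acetaminophen liver. In cultured hepatocytes the 3 erythroid hairpins summed to 0.00107% in control and 0.00529% with acetaminophen. In the liver with G-CSF they summed to 0.994%, between both other liver columns, and mir-451a had 9954 counts (0.908%) there. How far residual blood in the tissue contributed was not tested. The entry mir-451b followed mir-451a almost count for count, with 1745 and 5254 counts. As printed above, it is the exact reverse complement of mir-451a, and without a stated use of strand the reads of both entries cannot be told apart. mir-3107 had 243 and 192 counts and likewise followed mir-486. Leaving these 5 entries out of the totals, a setting chosen after seeing the data, gave 50 higher and 56 lower calls among the 220.

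The 11 leukocyte hairpins split. mir-142, expressed across blood cells, had 516 counts (0.0394%) in control and 273 (0.246%) in acetaminophen liver, 6.23-fold higher (5.35 to 7.21). mir-223, the neutrophil and monocyte microRNA, had 1169 counts (0.0894%) and 544 (0.489%), 5.47-fold higher (4.93 to 6.06). With G-CSF, which mobilises neutrophils, mir-223 held 0.435% and mir-142 0.0780%. Both were thus above control in either treated column, and the treated columns share that control.

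mir-155, induced in activated macrophages and lymphocytes, had 0.0480% and 0.106%, 2.21-fold higher (1.80 to 2.69), but its mature strand did not follow, as given further on. mir-146a, mir-146b and the lymphocyte microRNA mir-150 had ratios of 1.07, 1.07 and 1.04, with intervals that include equality. The 4 hairpins of mir-181a and mir-181b, prominent in lymphocytes, were called lower, 2.56- to 3.16-fold. They form 2 pairs of near-equal counts, and the mature table does not make these calls, with ratios of 0.511 (0.235 to 1.04) for miR-181a-5p and 0.637 (0.286 to 1.31) for miR-181b-5p. mir-342, carried in an intron of Evl (chr12:108658620-108658718), had 17205 counts (1.32%) in control and 281 (0.252%) after acetaminophen, 5.21-fold lower (4.63 to 5.89). The median log2 ratio of the list was 0.06 and turns negative with TMM or DESeq2 factors.

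mir-126a, the endothelial microRNA that supports VEGF signalling, had 30125 counts (2.30%) and 2442 (2.19%). Its ratio of 0.952 (0.913 to 0.992) moves above 1 when mir-122 is left out of the totals. Among the 6 mesenchymal and stellate hairpins, mir-143 was called higher, at 0.178% and 0.493%, 2.76-fold (2.51 to 3.03). Its cluster partner mir-145a had 2.09% and 1.08%, a ratio of 0.518 just short of a call. mir-199a-1, mir-199a-2 and mir-199b, which have near-equal counts, had ratios of 1.15 to 1.16 with intervals that include equality. Their shared leading strand was called higher in the mature table, with 19.5 and 24.5 counts, 3.15-fold (1.59 to 5.74). mir-214, which lies with mir-199a-2 in the transcript Dnm3os, was called lower at 2.20-fold (1.93 to 2.52). In the mature table miR-145a-5p was called lower, at a log2 ratio of -1.35, and miR-214-3p, at -0.93, was not called. The median of this list was 0.20 and turns negative with TMM. Of the biliary and epithelial list, mir-200c was called higher (2.12-fold) and mir-31 lower.

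**Figure D2:**
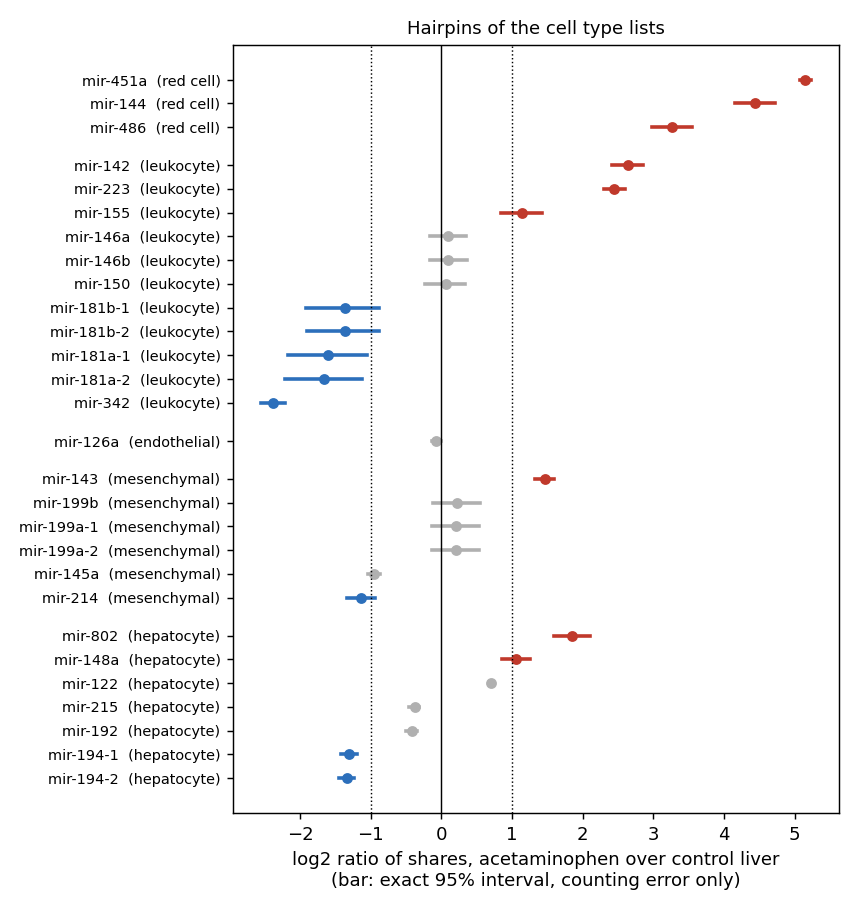
log2 ratio of shares, acetaminophen over control liver (x axis), for each hairpin of the red cell, leukocyte, endothelial, mesenchymal and hepatocyte lists; bars are exact 95% intervals for counting error, the dotted lines mark 2-fold, red is called higher, blue called lower and grey not called. All 3 red cell hairpins lie to the right of 2-fold, while the leukocyte list runs from mir-142 at 2.64 to mir-342 at -2.38.

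The largest ratio belonged to mir-3066, from an intron of Nol10 (chr12:17355392-17355474), with 20 counts (0.00153%) in control and 201 (0.181%) in acetaminophen liver. That is 118-fold (74.4 to 197). mir-615 followed with 18 and 154 counts, 100.5-fold (61.5 to 174). With G-CSF these hairpins had 25 and 9 counts, ratios of 1.49 and 0.597 to control, so their excess was seen in 1 liver column. Neither had a mature strand with at least 10 counts, which leaves the hairpin table alone for them.

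mir-2137, in an intron of Zfp185 on chromosome X, had 261 counts (0.0200%) and 720 (0.647%), 32.4-fold higher (28.1 to 37.5), and 0.209% with G-CSF. Its mature strand had 5 and 72 counts. It belongs to a list of entries whose reads may come from ribosomal or other RNA, and all 5 members of that list were called higher, with a summed share of 0.339% and 1.91%. mir-6239 (4.34-fold), mir-6240 (4.20-fold), mir-6236 (2.73-fold) and mir-5099 (2.69-fold) are the others. mir-3960 was 21.8-fold higher (17.1 to 27.9), with 106 and 197 counts.

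mir-1948 had 341 and 412.5 counts, 14.2-fold higher (12.3 to 16.4). mir-340, in an intron of Rnf130, had 219 and 126 counts, 6.76-fold higher (5.38 to 8.45). mir-335, in an intron of the imprinted gene Mest, had 218 and 120 counts, 6.47-fold higher (5.13 to 8.12). Both of these have few G and C bases in the leading strand printed above.

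Among the lower-called hairpins, those with the largest folds were nearly empty after acetaminophen, and their intervals are wide. mir-700 had 257 counts in control and 1 after acetaminophen, 21.9-fold lower (3.89 to 867). mir-1981, in an intron of Marc2, had 654 and 3 counts, 18.6-fold lower (6.32 to 90.2), and mir-1971, which shares sequence with it and had near-equal counts, had 620 and 3. mir-541 had 344 and 2 counts, 14.6-fold lower (4.02 to 121). mir-665 had 127 and 1 (10.8-fold, 1.91 to 430) and mir-409 had 221 and 2 (9.41-fold, 2.57 to 78.2). mir-541 and mir-409 lie in Mirg, within the imprinted Dlk1-Dio3 region, whose microRNAs are expressed from the maternal chromosome. mir-5135 had 101 counts in control and none after acetaminophen, at least 2.86-fold lower against the limit of 3 counts.

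The next hairpins had more counts and were 4.57- to 5.35-fold lower, with narrower intervals. mir-193a, mir-99b, mir-324 and mir-744 reached the minimum through the control column alone, which favours a lower call. mir-193a had 2827 and 45 counts, 5.35-fold lower (3.99 to 7.35). mir-99b had 2005 and 32.1 counts, 5.32-fold lower (3.77 to 7.82). mir-324, in a UTR exon of Dvl2, had 1497 and 25.3 counts, 5.03-fold lower (3.44 to 7.90), mir-505 was 5.10-fold lower, and mir-744 had 2221 and 41.4 counts, 4.57-fold lower (3.39 to 6.44). These hairpins were also below their control share in the column with G-CSF, where mir-324 had 0.0390% against 0.115% in control and mir-744 0.0769% against 0.170%.

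Among the 10 most abundant hairpins of control liver, 5 were called lower, beside 32.3% of all 220. Of these 5, 3 are the mir-103 and mir-107 hairpins, and a choice by high control share favours a lower call. mir-191, ranked second, had 46049.6 counts (3.52%) and 955 (0.858%), 4.11-fold lower (3.85 to 4.38), and its transcript partner mir-425 was 2.18-fold lower. mir-31, an epithelial microRNA, had 42007 counts (3.21%) and 798 (0.717%), 4.48-fold lower (4.18 to 4.81). With G-CSF mir-31 held 3.06%, a ratio of 0.954 to control, and mir-191 held 2.19%. mir-103-1, mir-103-2 and mir-107 lie in introns of the pantothenate kinase genes Pank3, Pank2 and Pank1 and are known for damping insulin signalling in liver. Each had about the same count, since their mature strands are near-identical, as printed above, and the reads were divided: mir-103-2 had 29733 counts (2.27%) and 559 (0.503%), 4.53-fold lower (4.16 to 4.93). The family is therefore 1 observation and not 3.

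Families described by role gave the following counts, to be read against the background above. Both miR-21 hairpins, known for induction in injury and inflammation, were called higher. mir-21a, within a UTR exon of Vmp1 (chr11:86584067-86584158), had 6097 counts (0.466%) and 1881 (1.69%), 3.62-fold higher (3.44 to 3.82), and with G-CSF 1.72%. mir-21b (3.11-fold) and mir-3965 (3.64-fold) resemble it in sequence, and their reads may be the same ones in part. mir-21a entered the 10 most abundant hairpins of acetaminophen liver.

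The miR-29 family, which represses collagen messenger RNAs, summed to 1.73% in control and 3.47% in acetaminophen liver. Its members were unequal: mir-29b-1 had 1289 and 550.2 counts, 5.02-fold higher (4.53 to 5.54), and mir-29b-2 was 4.98-fold higher. mir-29a was 1.58-fold higher (1.49 to 1.68) and mir-29c 1.78-fold (1.69 to 1.87). The miR-30 family summed to 8.37% and 13.2%, with both mir-30c hairpins called: mir-30c-2 had 21394 counts (1.64%) and 3963 (3.56%), 2.18-fold higher (2.10 to 2.25). mir-30b (1.70-fold), mir-30a (1.02-fold), mir-30e (1.35-fold) and mir-30d (0.9495-fold) were not called.

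The let-7 family with mir-98, a brake on growth genes, summed to 12.1% and 8.53%, and its 12 hairpins ran from a log2 ratio of -1.11 to 1.03. let-7d (2.13-fold, 1.90 to 2.38) and let-7e (2.17-fold, 1.67 to 2.90) were called lower and mir-98 higher (2.05-fold, 1.22 to 3.26). let-7a-1 had 34090 counts (2.61%) and 1934 (1.74%), a ratio of 0.666, and let-7a-2 and let-7c-1 had ratios of 0.553 and 0.561. let-7g, let-7f-1 and let-7i had ratios of 1.67, 1.62 and 1.66.

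Of the 14 hairpins of miR-17-92 and its paralogues, which promote proliferation, 3 were called higher (mir-20b, mir-106a and mir-106b, 2.40- to 2.48-fold) and none lower. The list median was 0.60, and 20.5% of all 220 hairpins were called higher. In the mature table miR-106a-5p and miR-106b-5p had the same counts, 15.9 and 14.1, and are not separate observations. Their ratio of 2.22 (0.991 to 4.79) was not called. All 4 hairpins of the miR-378 family, linked to mitochondrial energy metabolism, were called lower. mir-378a had 19642 counts (1.502%) and 588 (0.528%), 2.85-fold lower (2.62 to 3.09), and 0.502% with G-CSF. mir-378b and mir-378c had near-equal counts to mir-378a, and miR-378a-3p and miR-378c the same mature counts, so these 3 are not separate observations. mir-34a, a target of p53, was called lower as well, at 0.632% and 0.222%, 2.85-fold (2.51 to 3.24), whereas mir-210, a marker of hypoxia, had a ratio of 1.13 (0.758 to 1.64).

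In the Dlk1-Dio3 region 8 of 49 hairpins reached the minimum, with 6 called lower and 1, mir-380, called higher at 2.03-fold (1.83 to 2.24). The 6 reached it through the control column alone, which favours a lower call, so their number says little about the region. Summed over all 49 hairpins, the region held 0.370% in control and 0.501% after acetaminophen, of which mir-380 alone made up 0.202% and 0.410%. Of the miR-15/16 family, 1 of 8 hairpins (mir-503) was called lower. No hairpin was called in the miR-23/24/27 clusters (6 hairpins, median -0.55), the miR-26 and miR-101 families (6, median 0.42) or the mir-221 and mir-222 pair (2, median -0.26). Of the 6 hairpins of miR-99/100 and miR-125, 1 (mir-99b) was called lower, with a median of -0.39.

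The members shared a feature that the choice of hairpins had not used, the base composition of the leading mature strand. This feature and the limits of its classes were chosen after the ratios had been seen. With 1 hairpin taken for each leading strand with a RefSeq sequence, 161 could be used. Pearson's r between the percentage of G and C and the log2 ratio was -0.405 and Spearman's rho -0.545, over points that share both libraries and, within families, part of their reads. The 33 strands under 40% had a median log2 ratio of 0.83, with 15 at least 2-fold higher and 4 at least 2-fold lower. The 77 strands from 40% to 50% had a median of 0.09, with 9 and 22. The 51 strands over 50% had a median of -1.38, with 4 and 34. Called-higher hairpins had a median of 37.4% G and C, called-lower ones 54.5% and uncalled ones 43.5%.

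The strands of the last printed set were picked from called hairpins of these data, so they illustrate the pattern and cannot test it. miR-340-5p, with 27.3%, and miR-335-5p, with 30.4%, were higher, while miR-744-5p, with 63.6%, and miR-324-5p, with 60.9%, were lower. Strands nearer the middle went both ways: miR-223-3p, with 40.9%, was higher, whereas miR-107-3p, with 47.8%, was lower. miR-2137, with 85.7%, stood against the pattern, being far higher in acetaminophen liver. Among hairpins with at least 100 counts in both columns the values were alike, with n = 89, r of -0.313 and rho of -0.562. Strands of the mature table gave r of -0.403 and rho of -0.51 over 139. In cultured hepatocytes the log2 ratios of 112 hairpins gave r of 0.184 and rho of 0.11, and the same 112 in liver gave -0.312 and -0.512. The column with G-CSF, set over the same control column, had medians of 0.68, 0.10 and -0.49 in the 3 composition classes. What lies behind this pattern was not tested.

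**Figure D3:**
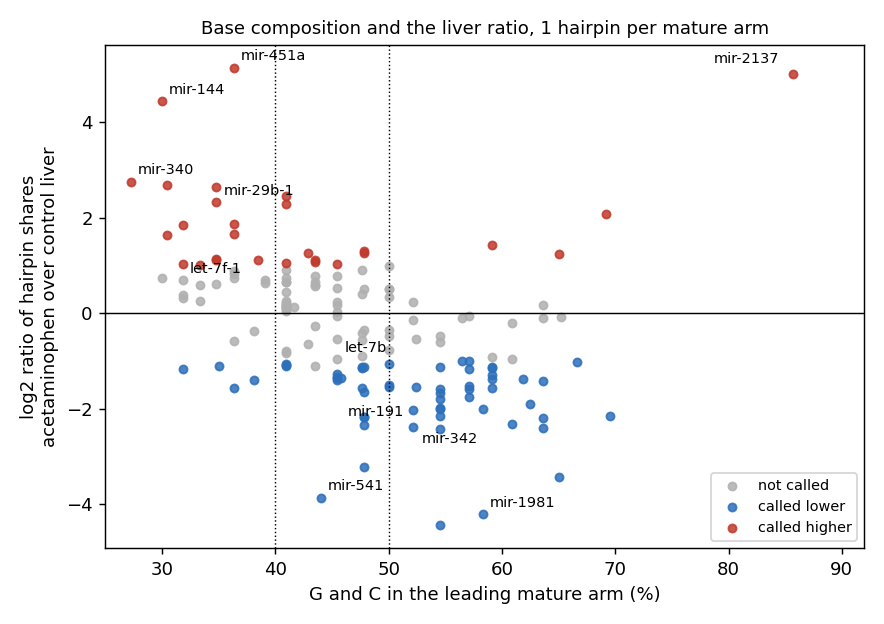
Percentage of G and C in the leading mature strand (x axis) against the log2 ratio of hairpin shares, acetaminophen over control liver (y axis), 1 point for each of 161 leading strands; dotted lines mark 40% and 50%, and colours give the call. The median runs from 0.83 in the 33 strands under 40% to -1.38 in the 51 over 50%, with mir-2137 at 85.7% as an exception.

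Hairpins of 1 genomic cluster, which may be made from a common transcript, did not always have like ratios. With neighbours within 10 kb on the same strand joined, a grouping also chosen after seeing the data, 74 of the members formed 31 clusters. In 14 of these the log2 ratios spanned more than 1, and the span among unrelated hairpins was not computed. Some wide spans rest on few counts after acetaminophen, such as 1 for mir-665 beside 4.5 for its neighbour mir-127, and 2 each for mir-541 and mir-409. mir-29b-2 and mir-29c, both in A330023F24Rik on chromosome 1, had 2.32 and 0.83, and mir-29b-1 and mir-29a on chromosome 6 had 2.33 and 0.66. let-7f-1, let-7a-1 and let-7d, neighbours on chromosome 13, had 0.70, -0.59 and -1.09. Their leading strands had -0.55, -1.01 and -1.41 in the mature table, all lower. mir-100 and let-7a-2 had 0.51 and -0.85, and mir-497 and mir-195a 0.98 and -0.65. Some of these values may include reads from elsewhere. let-7a-2 shares sequence and near-equal counts with let-7c-1 and let-7c-2, and mir-195a with mir-16-1 and mir-16-2. mir-29b-1 and mir-29b-2 have the same leading strand, so their clusters are not separate observations. Other clusters held together, such as mir-17, mir-19a, mir-20a and mir-19b-1, which ran from 0.50 to 0.70. Opposite calls occurred in 1 cluster, that of mir-379, mir-380 and mir-494.

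The mature table was used as a check on the hairpin table. With at least 10 counts in either column, 160 mature microRNAs were measured, of which 27 (16.9%) were called higher and 50 (31.2%) lower, 48.1% in either direction. Of the 116 called hairpins, 70 had a leading strand with enough counts, and in 65 of them its ratio pointed the same way. All 46 lower-called hairpins in this set did so, with 34 strands also called, as did 19 of the 24 higher-called ones, with 16 also called. Over 133 distinct leading strands the log2 ratios of both tables had a Pearson correlation of 0.905, from the same libraries.

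Red cell strands and miR-2137 had the highest ratios there. miR-2137 had a ratio of 36.1 (14.8 to 114). miR-451a had 87 mature counts (0.176%) in control and 1163 (5.90%) after acetaminophen, 33.5-fold higher (26.9 to 42.1). miR-144-3p had 1 and 31 counts, a ratio of 77.7 with an interval from 12.9 to 3165. miR-29b-3p had 38.2 and 121 counts, 7.96-fold higher (5.50 to 11.8), and miR-21a-5p had 290 and 492, 4.25-fold higher (3.67 to 4.93). On the lower side miR-191-5p had 2595.5 and 188 counts, 5.51-fold lower (4.75 to 6.43), miR-31-5p was 5.93-fold lower (4.52 to 7.92) and miR-103-3p 6.72-fold lower (5.24 to 8.78).

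The let-7 strands, all with the same seed, also differed among themselves, though not in every case as their hairpins did. miR-98-5p was 2.09-fold higher (1.51 to 2.94), let-7i-5p and let-7g-5p had ratios of 1.49 and 1.41, and let-7f-5p 0.683 (0.567 to 0.813), where the hairpin let-7f-1 had been higher. let-7a-5p, let-7e-5p, let-7d-5p and let-7b-5p had ratios of 0.495, 0.457, 0.376 and 0.351. Their G and C content is 31.8% in miR-98-5p and let-7f-5p, 36.4% in let-7a-5p and let-7g-5p, 40.9% in let-7d-5p, let-7e-5p and let-7i-5p and 45.5% in let-7b-5p, so the order of the ratios is not the order of composition.

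The 5 hairpins whose strand pointed the other way were all called higher as hairpins: mir-30c-1, mir-30c-2, mir-155, mir-380 and mir-5099. miR-30c-5p had 1269 mature counts (2.57%) in control and 302 (1.53%) after acetaminophen, 1.68-fold lower (1.48 to 1.91), whereas its hairpins were about 2-fold higher. miR-380-5p had 45 counts and none, and miR-155-5p had 10 and none, the latter within counting error of no change. The higher hairpin shares of mir-30c, mir-155 and mir-380 were thus not seen in the mature table.

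**Figure D4:**
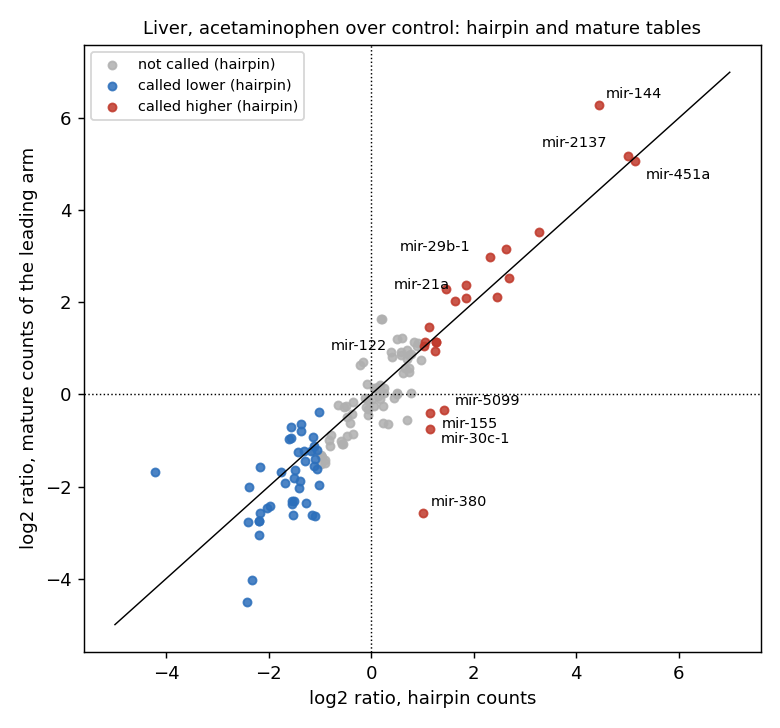
log2 ratio of acetaminophen over control liver in the hairpin table (x axis) against that of the leading strand in the mature table (y axis), 1 point for each of 133 leading strands; the solid line is equality. Most points lie along the line, and mir-380, mir-30c-1, mir-155 and mir-5099 lie to the right of 0 and under it.

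The ratio of mature to hairpin counts was higher in acetaminophen liver for nearly all hairpins in which it could be formed. It compares 2 tables and is not a share, since it exceeded 100% for let-7e, mir-98, mir-489 and mir-5099. With hairpins that share a mature product pooled, 133 of 137 sets had a higher mature-to-hairpin percentage in acetaminophen liver, and the other 4 (mir-155, mir-380, mir-671 and mir-1981) had no mature count there. The median percentage was 3.10% in control and 13.7% after acetaminophen, and the median change was 4.25-fold. mir-122 had 9.33% and 45.75%, and the mir-30c pair had 3.03% and 3.83%, a change of 1.26-fold. mir-144 had 1.27% and 19.9%, the largest change at 15.7-fold, but this rests on 2 mature counts in control, beside 58 after acetaminophen. Without mir-122 the whole tables gave 3.19% and 12.5%. Levels in the hairpin table are therefore not compared with levels in the mature table.

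Use of the 2 strands of a hairpin could be compared for 18 sets, and in 4 the exact 95% intervals of the 5p share did not overlap. For mir-126a the 5p strand made up 4.28% (3.29 to 5.46) of strand counts in control and 17.8% (14.5 to 21.4) after acetaminophen, with 61 and 87 counts of miR-126a-5p beside 1366 and 403 of miR-126a-3p. mir-126a thus had an even hairpin share and a different balance of strands. For mir-29c the 5p share was 6.13% and 0.330%, with 22.5 and 1 counts, and for mir-31 it was 99.3% and 88.9%, with 6 and 7 counts of the 3p strand. For mir-122 the 5p share was 99.95% and 99.68%.

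In cultured hepatocytes 148 of the 220 hairpins reached the minimum. The leukocyte list held 0.0885% of the control and 1.03% of the acetaminophen total there, and the mesenchymal list 0.0139% and 0.125%. Doses and exposure differ, so values are set side by side. In hepatocytes 26.8% of hairpins with at least 100 counts were called higher and 38.2% lower. Of the 30 higher-called liver hairpins measured there, 15 were higher in hepatocytes, 10 lower and 5 not called. That is 50% of the liver list and 42.9% of the 35 hairpins higher in hepatocytes. Of the 45 lower-called ones, 18 were lower, 11 higher and 16 not called, which is 40% of the liver list and 31.0% of the 58 lower in hepatocytes. The 40% lies near the 38.2% called lower in hepatocytes at large, so the number of shared lower calls says little. The 50% of shared higher calls lies above the 26.8% called higher there, but many of these 15 hairpins carry a doubt given above. The mature strands of mir-30c-1, mir-30c-2, mir-155 and mir-380 pointed the other way in liver. For mir-2137, mir-6236, mir-6239 and mir-6240 the reads may come from ribosomal or other RNA.

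Hairpins higher in both included most of those with the largest liver ratios outside the red cell list. mir-3066 had 3 counts in control and 2096 in treated hepatocytes, mir-615 had 2 and 143, mir-2137 had 1376 and 13078, and mir-1948 had 612 and 7124, in columns of 838624 and 179751 hairpin counts. mir-30c-1 was 7.31-fold higher there and mir-155 24.99-fold. Those lower in both included mir-31 (12.96-fold lower in hepatocytes), the mir-103 and mir-107 hairpins (9.53-fold), mir-99b (15.5-fold), mir-34a (5.28-fold) and mir-324 (4.63-fold). mir-122 had a ratio of 1.03 in hepatocytes.

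Others parted. mir-21a, higher in liver, had 119094 counts in control hepatocytes and 1221 with acetaminophen, 20.9-fold lower. mir-378a, lower in liver, was 6.61-fold higher in hepatocytes, and mir-342, with 204 and 131 counts, was 2.996-fold higher. mir-191, far lower in liver, had a ratio of 1.03. mir-451a, mir-144 and mir-486 had 6 counts or fewer in either hepatocyte column.

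**Figure D5:**
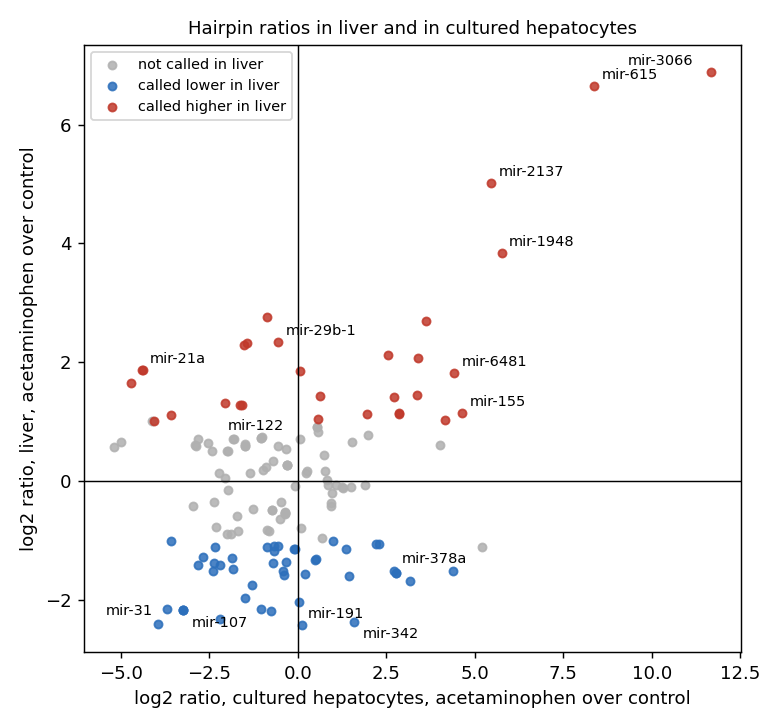
log2 ratio of hairpin shares, acetaminophen over control, in cultured hepatocytes (x axis) against that in liver (y axis), 1 point for each of the 148 hairpins with at least 100 counts in a hepatocyte column; colours give the call in liver. mir-3066, mir-615, mir-2137 and mir-1948 lie at the upper right, mir-21a at the upper left and mir-378a at the lower right.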

How the data were processed

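Values are estimated counts (expected counts) per hairpin or mature microRNA, fractional where reads match several entries and not scaled to depth, deposited by the authors with 1 column per condition, per the file headers. Per the labels' protocols, libraries came from total RNA (Norgen kit) and were made with an Ion Total RNA-Seq Kit. Aligner, annotation release and rule for dividing reads: not given in the sources used here. The 4 samples of the liver comparison correspond to 2 columns, each combining both instruments. Shares of column totals were compared by their ratio, with exact conditional Clopper-Pearson 95% intervals on rounded counts (SciPy 1.17.1). A call needed a 2-fold ratio and an interval excluding equality, with at least 100 counts in either column for hairpins and 10 for mature microRNAs, and a count of 0 was set to 3 for ratios. The interval code was tested on simulated data. Alternatives were TMM (edgeR 4.0.16), DESeq2 1.42.0 size factors, totals without chosen hairpins, and other minimums and folds. Loci come from RefSeq and GENCODE M21 on GRCm38.

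Named hairpins are mir-122, the 12 with the largest ratio in each direction, the 10 with the largest share in each column, and members of 5 cell type lists. Others are examples of the 27 lists, or were chosen after their values were seen (mir-3965, mir-193b, mir-7b and the like, those at the limits, in clusters and in the strand checks). The members and lists were chosen with earlier results of these data known.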

Additional observations from a re-analysis of the deposited data

Results flagged for a closer look

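The acetaminophen response went in opposite directions in liver and in cultured hepatocytes for 21 hairpins that were called in both. The value given is the log2 ratio in liver minus that in hepatocytes. With 1 column per condition the difference was not tested, and doses and exposure differ. Higher in liver and lower in hepatocytes were mir-21a (6.25), mir-21b (6.35), mir-3965 (6.22), mir-7b (5.08), mir-7a-1 (4.69), mir-350 (3.79), mir-29b-2 (3.75), mir-20b (3.36), mir-106b (2.91) and mir-106a (2.86). The entries mir-21b and mir-3965 resemble mir-21a in sequence and may share reads with it. Lower in liver and higher in hepatocytes were mir-878 (-5.89), mir-139 (-4.86), mir-378b (-4.32), mir-378c (-4.32), mir-378a (-4.24), mir-342 (-3.96), mir-130a (-3.35), mir-130c (-3.28), mir-669e (-3.04), mir-574 (-2.52) and mir-140 (-2.01). The hairpins mir-378a, mir-378b and mir-378c had near-equal counts in liver and are not separate observations.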

How the results depend on the processing

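Each scaling moves all log2 ratios by the same amount (-0.22 with TMM), too little to turn a call to the opposite direction. Only the number of calls kept can change. Of the 116 called hairpins, TMM and DESeq2 factors each kept 104, and totals without mir-122 kept 110. Totals without the repeat, SINE-like and rRNA-like entries kept 113, and totals without the erythroid entries (added after seeing the data) 101. The median log2 ratio of the hairpins was -0.10 and lies near 0, so its sign is not fixed: it was -0.32 with TMM, -0.27 with DESeq2, 0.00 without mir-122 (also the most abundant hairpin), 0.05 without the erythroid entries, -0.18 at a minimum of 500 counts, 0.38 at 10 counts and 0.17 with 100 counts in both columns. Higher calls numbered 23 at a minimum of 500 counts, 87 at 10 counts (beside 74 lower) and 25 at a 3-fold limit. Lower calls numbered 27 with 100 counts in both columns and 30 at a 3-fold limit. Higher calls made up 38.8% of hairpin calls, but 28.4% with TMM, 54.0% at a minimum of 10 and 53.4% with 100 counts in both columns. In the mature table, totals without miR-122-5p gave 41 higher and 35 lower calls in place of 27 and 50, TMM gave 38 and 40, and a 3-fold limit left 30 lower. The log2 ratio of mir-126a was 0.03 without mir-122 and 0.08 without the erythroid entries. In mature counts mir-30c-1 and mir-30c-2 stood at -0.75 and mir-155 at -0.41. Counting hairpins that share a 12-base stretch and counts within 15% once, an alternative added after seeing the data, left 189 hairpins, 43 higher and 61 lower. The cause of these shifts was not tested, apart from the smaller or larger number of hairpins that each minimum leaves. No paired analysis was possible because both instruments of a condition are combined in 1 column, and leaving out 1 instrument was not run for the same reason. Depth limits the acetaminophen column: hairpins with 1 to 3 counts there have intervals that span more than 10-fold, and differences between mice cannot be seen in 1 column per condition.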
